A study of Homo sapiens with 18 samples.

Results

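The set consists of 10 genes of serine synthesis, mitochondrial one-carbon metabolism and the ATF4 response, chosen by name: PHGDH, PSAT1, PSPH, SHMT2, MTHFD2, ALDH1L2, PCK2, ASNS, TRIB3 and ATF4. A row under that symbol was found for 8 of the 10, and ASNS and MTHFD2 are not analysed here. All 8 passed the filter on low values, among 13068 genes tested of 19746 with a row. The RNA came from NCI-H211 cells with Cas9, grown in RPMI medium with fetal bovine serum. NCI-H211 is an established line from small cell lung cancer and belongs to the tuft-like subtype that depends on POU2F3, the octamer factor that specifies tuft cells of several epithelia. The cells held a stable cDNA of POU2F3 that the guide cannot cut, either with the L191A change (L191A) or without it (WT), or an empty vector. Each line received lentivirus with a guide against the endogenous gene (sgPOU2F3) or a control guide (sgRosa) in 3 parallel infections, and poly(A) RNA was sequenced on day 5. The 6 groups of 3 libraries were therefore L191A sgPOU2F3, L191A sgRosa, WT sgPOU2F3, WT sgRosa, empty vector sgPOU2F3 and empty vector sgRosa. Each line is 1 stable culture, so p-values measure the spread between infections, which may be technical, and not between independently made lines.

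As background, cells make serine from a glycolytic intermediate in 3 steps. PHGDH oxidises 3-phosphoglycerate, PSAT1 transaminates the product and PSPH removes the phosphate. In mitochondria SHMT2 splits serine into glycine and a one-carbon unit carried on folate, which MTHFD2 and ALDH1L2 process further. ATF4 is the bZIP transcription factor of the integrated stress response, in which kinases that phosphorylate eIF2 slow general translation and raise translation of ATF4. ATF4 drives genes of amino acid synthesis, transport and tRNA charging, and it is known for keeping these pathways on in many tumours. Because ATF4 is controlled largely by translation, its mRNA level does not measure its protein.

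ATF4 binds with C/EBP partners to an element that can be written TGATGNAA. The element was searched on both strands in RefSeq promoters of GRCh38.p14, each 300 bases long, with 250 bases before the gene start and 50 after it. It was present in 1270 of 35116 promoters (3.62%), and in 1217 of 27305 genes (4.46%). Of the 7 members with an entry (ATF4, PHGDH, PSAT1, MTHFD2, ASNS, PCK2 and TRIB3), 1 held a match (14.29%), in ASNS. PSPH, SHMT2 and ALDH1L2 had no entry. In a wider list of ATF4 targets the match was in 9 of 29 genes with an entry (31.03%). The windows that follow run 5′ to 3′ on the strand that reads TGATGNAA, with the match in capitals. They are shown because they hold these letters upstream of the start, in 1 member and in genes of the wider list whose values are given further on. ASNS lies at chr7:97872454-97872491 (minus strand), CHAC1 at chr15:40953247-40953284 (minus), CEBPG at chr19:33374056-33374093 (plus), FGF21 at chr19:48755455-48755492 (minus), SLC1A5 at chr19:46784889-46784926 (minus) and ATF3 at chr1:212565201-212565238 (plus).
ASNS: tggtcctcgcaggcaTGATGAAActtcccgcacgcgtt
CHAC1: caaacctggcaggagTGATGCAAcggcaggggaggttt
CEBPG: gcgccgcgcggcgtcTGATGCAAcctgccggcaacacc
FGF21: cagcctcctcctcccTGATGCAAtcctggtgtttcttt
SLC1A5: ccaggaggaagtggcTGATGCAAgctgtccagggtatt
ATF3: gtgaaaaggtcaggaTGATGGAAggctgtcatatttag
In the ASNS promoter the match begins 68 bases before the gene start, at −68. A match is a description of these letters and not evidence of binding, and a promoter with no match says nothing of ATF4 elsewhere at that gene.

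Values were TPM (abundance scaled for transcript length and library total), which sum to the same total in every library, so read depth was unknown and no counting error could be given. L191A sgRosa replicate 1 and WT sgPOU2F3 replicate 1 stood apart. Their median gene was at 7.05 and 12.7 TPM and their ribosomal protein genes took 38.0% and 32.8% of the TPM, against 18.6 to 26.4 TPM and 15.8% to 26.4% in the other 16 libraries. Every result is therefore given with all 18 libraries and, where it differs, in the 16 libraries without this pair. The targeted gene, POU2F3, was read first. It was at 621, 672 and 645 TPM in L191A sgPOU2F3 libraries, against 142, 1053 and 831 TPM in L191A sgRosa libraries, the first of them the skewed one. It was at 1136, 1276 and 1049 TPM in WT sgPOU2F3 libraries, against 1701, 1881 and 1796 TPM in WT sgRosa libraries. With the empty vector it was at 253, 318 and 274 TPM under sgPOU2F3, against 682, 654 and 853 TPM under sgRosa (log2 change −1.37, SE 0.48, limma adjusted p = 0.0617, and 1.965e-07 in 16 libraries). The table does not separate transcripts of the cDNA from those of the endogenous gene, and cutting by Cas9 need not lower the mRNA. Tuft markers were present, with RGS13 at 229 to 1986 TPM and AVIL at 117 to 1000.2 TPM per library, and they moved with the guide. Of 10 markers other than POU2F3, the mean was lower under sgPOU2F3 than under sgRosa for 10 in L191A cells, 9 in WT cells and 10 in empty-vector cells. Their summed level was 1108 to 1137 TPM in L191A sgPOU2F3 libraries, against 898 to 2258 TPM in L191A sgRosa libraries. It was 2895 to 3152 TPM in WT sgPOU2F3 libraries, against 3523 to 3834 TPM in WT sgRosa libraries. With the empty vector it was 1132 to 1334 TPM under sgPOU2F3, against 3319 to 4033 TPM under sgRosa. The groups overlapped in L191A cells alone, at the skewed sgRosa library. Among neuroendocrine markers, CHGB stayed at or below 0.11 TPM in every library, and CHGA and SYP at or below 0.989 and 1.36 TPM. NEUROD1 reached 2.05 TPM, INSM1 7.52 TPM and NCAM1 157.9 TPM. YAP1, which marks a different small cell lung cancer state, moved with the guide. Its mean was 73.4 against 15.4 TPM in L191A cells (sgPOU2F3 against sgRosa), 16.4 against 12.9 TPM in WT cells, and 46.1 against 3.51 TPM in empty-vector cells. The part of these shifts, in tuft markers and YAP1, in the results that follow was not tested.

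With the empty vector, sgPOU2F3 lowered most of the set. ALDH1L2, ATF4, PCK2, PHGDH, PSAT1 and PSPH fell, 6 of the 8 members, and none rose. At an unadjusted p under 0.05, 7 fell and 0 rose. Of all genes tested, 9.5% fell and 7.94% rose in this contrast by limma at an adjusted p under 0.05. In 16 libraries SHMT2 fell as well, which made 7 of 8, where 32.7% of all genes fell and 19.0% rose. The median log2 change was −0.74 over the members and −0.13 over all genes tested. Because RNA was taken in bulk, fewer cells that express a gene and less RNA per cell cannot be told apart. The count of 6 rested on the replicates of these groups. It was 2 without empty vector sgPOU2F3 replicate 1, 3 without its replicate 2, and 3 without empty vector sgRosa replicate 2 or replicate 3. In the 16 libraries it was 7 whichever further library was left out. After median-ratio scaling, which removes the shift of the median gene, 4 members fell in 18 libraries and 5 in 16. The share of all genes called after this scaling is not given here or below, so such counts cannot be compared with it.

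In L191A cells the guide also lowered members of the set, and which ones passed depended on the skewed sgRosa library. ATF4, PCK2 and PHGDH fell with all 18 libraries, 3 of 8, where 0.566% of all genes fell and 5.43% rose. In 16 libraries PSAT1, PSPH, SHMT2 and TRIB3 fell as well, which made 7 of 8, where 3.33% of all genes fell and 7.35% rose. ALDH1L2 did not pass in either fit. The members' median log2 change was −0.41 against 0.33 over all genes in 18 libraries, and −0.52 against 0.01 in 16. The count of 3 became 1 without L191A sgPOU2F3 replicate 1 or 2, WT sgPOU2F3 replicate 2, WT sgRosa replicate 2, or empty vector sgRosa replicate 1 or 2. Within the 16 libraries the count of 7 was 2 without L191A sgRosa replicate 2, and 3 without its replicate 3 or L191A sgPOU2F3 replicate 1 or 2.

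In WT cells, which keep wild-type POU2F3 from the cDNA, few members passed the test. ALDH1L2 fell, 1 of 8, where 5.17% of all genes fell and 1.54% rose. In 16 libraries PSPH fell as well, 2 of 8, where 30.4% of all genes fell and 5.69% rose, so the members' share was close to that of all genes. The members' median log2 change was −0.12 against −0.42 over all genes in 18 libraries, and −0.14 against −0.26 in 16. After median-ratio scaling 0 members passed in 18 libraries, with 2 higher and 1 lower at an unadjusted p under 0.05, and 1 fell in 16. Leaving out 1 library gave 0 calls for WT sgPOU2F3 replicate 1, empty vector sgRosa replicate 1 and each WT sgRosa or L191A sgPOU2F3 library, and 2 for L191A sgRosa replicate 1 or 2 and WT sgPOU2F3 replicate 3. Within the 16 libraries the count was 1 without either of the remaining WT sgPOU2F3 libraries or WT sgRosa replicate 1 or 2.

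**Figure D1:**
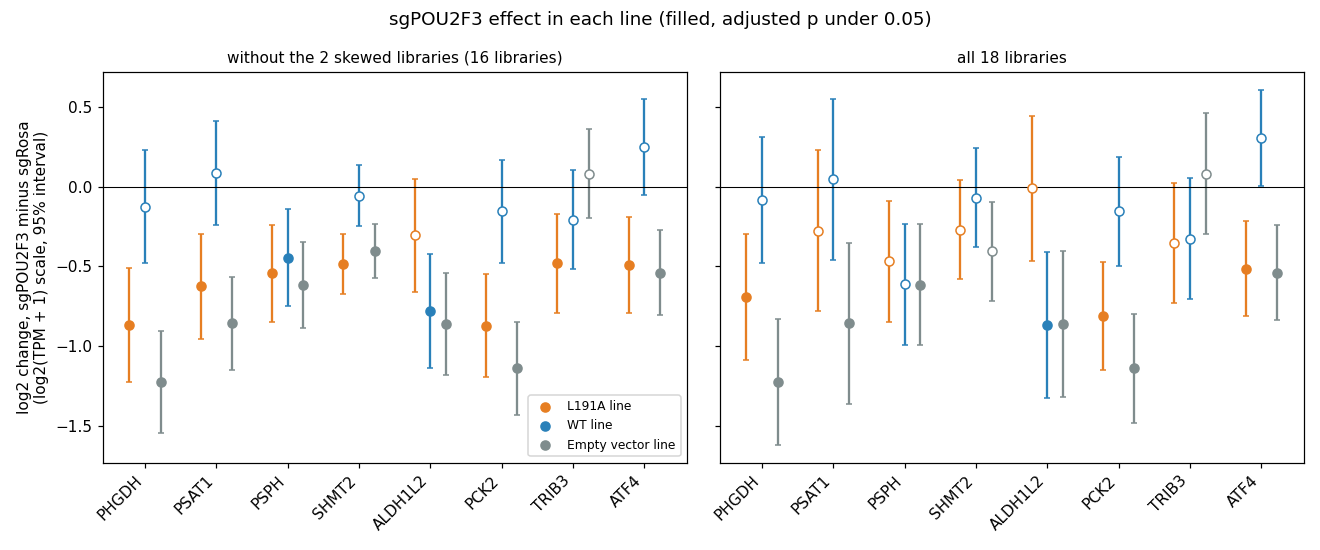
Log2 change under sgPOU2F3 relative to sgRosa, on the log2(TPM + 1) scale with 95% intervals, for each member in L191A, WT and empty-vector cells, without the skewed libraries (left) and with all 18 (right). Filled points passed an adjusted p of 0.05 in limma: 7, 2 and 7 members on the left and 3, 1 and 6 on the right, for L191A, WT and empty-vector cells in that order.

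PHGDH, which commits carbon to serine, had one of the 2 lowest p-values of the set with the empty vector. It was at 91.8, 93.3 and 118 TPM in sgPOU2F3 libraries, against 239, 259 and 212 TPM in sgRosa libraries. Every sgPOU2F3 library was below every sgRosa library, and PHGDH fell by 1.22 on the log2 scale (SE 0.19, limma adjusted p = 0.0002542). In L191A cells it was at 123, 134 and 195 TPM under sgPOU2F3, against 187, 308 and 236 TPM under sgRosa. The groups met only at the skewed sgRosa library, at 187 TPM, and PHGDH fell by 0.69 on the log2 scale (SE 0.19, limma adjusted p = 0.03743). In 16 libraries it fell by 0.87 (SE 0.17, limma adjusted p = 0.002141). WT cells held 297, 275 and 270.0 TPM under sgPOU2F3, against 282, 292 and 319 TPM under sgRosa. These overlapped only through the skewed sgPOU2F3 library, at 297 TPM, and the log2 change of −0.08 had a 95% interval of −0.48 to 0.31 (limma adjusted p = 0.7366). In 16 libraries the WT groups were apart, with a log2 change of −0.13 that missed the threshold (95% interval −0.48 to 0.23, limma adjusted p = 0.549).

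PSAT1, the transaminase of the second step, was at 45.3, 47.5 and 66.5 TPM in empty-vector sgPOU2F3 libraries, against 95.7, 96.5 and 95.0 TPM in sgRosa libraries. The groups were apart, and it fell by 0.86 on the log2 scale (SE 0.24, limma adjusted p = 0.02017). L191A cells held 58.3, 57.6 and 76.1 TPM under sgPOU2F3, against 47.0, 97.5 and 99.5 TPM under sgRosa. The skewed sgRosa library was the lowest of the 6. With it the log2 change was −0.28 (limma adjusted p = 0.4214), and without the skewed pair PSAT1 fell by 0.63 (SE 0.15, limma adjusted p = 0.01344). In WT cells it was at 98.9, 107 and 108 TPM under sgPOU2F3, against 119.5, 90.3 and 95.3 TPM under sgRosa. The groups overlapped, with a 95% interval of −0.46 to 0.55 for the log2 change.

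PSPH, the phosphatase of the last step, had a lower mean under the guide in every line and passed in the empty-vector line alone with 18 libraries. With the empty vector it was at 22.3, 21.2 and 25.1 TPM under sgPOU2F3, against 31.2, 38.4 and 37.4 TPM under sgRosa. It fell by 0.62 on the log2 scale (SE 0.18, limma adjusted p = 0.02576), and the groups were apart. L191A cells held 27.4, 25.2 and 32.7 TPM under sgPOU2F3, against 35.5, 40.4 and 43.0 TPM under sgRosa. WT cells held 27.0, 34.0 and 44.1 TPM under sgPOU2F3, against 59.7, 53.4 and 46.9 TPM under sgRosa. These groups did not overlap either, yet with 18 libraries the adjusted p by limma was 0.1545 in L191A cells and 0.05049 in WT cells. In 16 libraries PSPH fell in both, by 0.54 in L191A cells (limma adjusted p = 0.01981) and by 0.45 in WT cells (limma adjusted p = 0.02871).

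SHMT2, which passes the carbon of serine to mitochondrial folate, was one of the more abundant members. Empty-vector cells held 254, 269 and 274 TPM under sgPOU2F3, against 365, 367 and 324 TPM under sgRosa. The groups were apart, with a log2 change of −0.40 that missed the threshold in 18 libraries (limma adjusted p = 0.07044) and passed in 16 (limma adjusted p = 0.0006501). In L191A cells it was at 185, 196 and 215 TPM under sgPOU2F3, against 178, 290.1 and 266 TPM under sgRosa. Here again the skewed sgRosa library was the lowest, and with it SHMT2 missed the threshold (limma adjusted p = 0.2657). In 16 libraries SHMT2 fell by 0.48 (SE 0.09, limma adjusted p = 0.001492), and with 18 libraries it also passed after median-ratio scaling or quantile normalization. WT cells held 308, 333 and 299 TPM under sgPOU2F3, against 318, 322 and 345 TPM under sgRosa. Those overlapped, with a 95% interval of −0.38 to 0.24 for the log2 change.

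ALDH1L2, the mitochondrial dehydrogenase that oxidises formyl-folate, was by far the least abundant member, and the log2(TPM + 1) scale understates its change. It was at 0.581, 0.812 and 1.08 TPM in empty-vector sgPOU2F3 libraries, against 2.10, 2.12 and 2.71 TPM in sgRosa libraries. WT cells held 2.11, 3.03 and 2.44 TPM under sgPOU2F3, against 5.39, 5.26 and 5.57 TPM under sgRosa. In both lines the groups were apart and ALDH1L2 fell, by 0.86 with the empty vector (SE 0.22, limma adjusted p = 0.01145) and by 0.87 in WT cells (SE 0.22, limma adjusted p = 0.03556). It was the only member called in WT cells with 18 libraries. L191A cells held 0.95, 0.665 and 0.978 TPM under sgPOU2F3, against 0.248, 1.66 and 0.979 TPM under sgRosa. Levels were low under both guides there, and the skewed sgRosa library, at 0.248 TPM, was the lowest of the 6. With it the log2 change was −0.01 (95% interval −0.47 to 0.45). In 16 libraries the sgPOU2F3 libraries were below both remaining sgRosa libraries, with a log2 change of −0.30 that missed the threshold (95% interval −0.66 to 0.05, limma adjusted p = 0.3361).

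PCK2, the mitochondrial enzyme that makes phosphoenolpyruvate, varied little within the WT groups and the empty-vector sgRosa group. With the empty vector it was at 23.4, 28.1 and 31.8 TPM under sgPOU2F3, against 62.8, 62.1 and 61.3 TPM under sgRosa. It fell by 1.14 on the log2 scale (SE 0.16, limma adjusted p = 0.0001125). L191A cells held 20.1, 22.4 and 29.4 TPM under sgPOU2F3, against 38.7, 51.6 and 37.8 TPM under sgRosa. The groups were apart, and PCK2 fell by 0.81 (SE 0.16, limma adjusted p = 0.004712). WT cells held 73.5, 73.9 and 73.4 TPM under sgPOU2F3, against 80.3, 79.7 and 86.3 TPM under sgRosa. These were also apart, but the difference was small, with a log2 change of −0.15 (95% interval −0.50 to 0.19, limma adjusted p = 0.4595).

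ATF4 mRNA was at 289, 278 and 352 TPM in empty-vector sgPOU2F3 libraries, against 449, 464 and 416 TPM in sgRosa libraries. It fell by 0.54 on the log2 scale (SE 0.14, limma adjusted p = 0.01514). L191A cells held 264, 283 and 384 TPM under sgPOU2F3, against 453, 423 and 438 TPM under sgRosa, and ATF4 fell by 0.51 there (SE 0.14, limma adjusted p = 0.04124). In both lines every sgPOU2F3 library was below every sgRosa library. WT cells held 592, 554 and 495 TPM under sgPOU2F3, against 399.8, 435 and 493 TPM under sgRosa. The sgPOU2F3 libraries were the higher ones in this line, by a log2 difference of 0.31 that missed the threshold (95% interval 0.01 to 0.61, limma adjusted p = 0.1241). In 16 libraries this difference was 0.25 (95% interval −0.05 to 0.55, limma adjusted p = 0.1632). TRIB3, a pseudokinase that ATF4 induces and that restrains ATF4 in turn, did not pass in any line with 18 libraries and TPM as deposited. It was at 35.2, 43.4 and 44.5 TPM in empty-vector sgPOU2F3 libraries, against 38.5, 35.5 and 41.7 TPM in sgRosa libraries. The groups overlapped, with a log2 change of 0.08 (limma adjusted p = 0.8113, 95% interval −0.20 to 0.36 in 16 libraries). L191A cells held 23.3, 26.7 and 28.0 TPM under sgPOU2F3, against 27.7, 37.7 and 35.5 TPM under sgRosa. The 2 groups met only at the skewed sgRosa library, and in 16 libraries TRIB3 fell by 0.48 (limma adjusted p = 0.04646). With 18 libraries it passed after median-ratio scaling or quantile normalization. WT cells held 45.9, 55.2 and 63.3 TPM under sgPOU2F3, against 83.5, 68.2 and 56.1 TPM under sgRosa, and these overlapped.

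**Figure D2:**
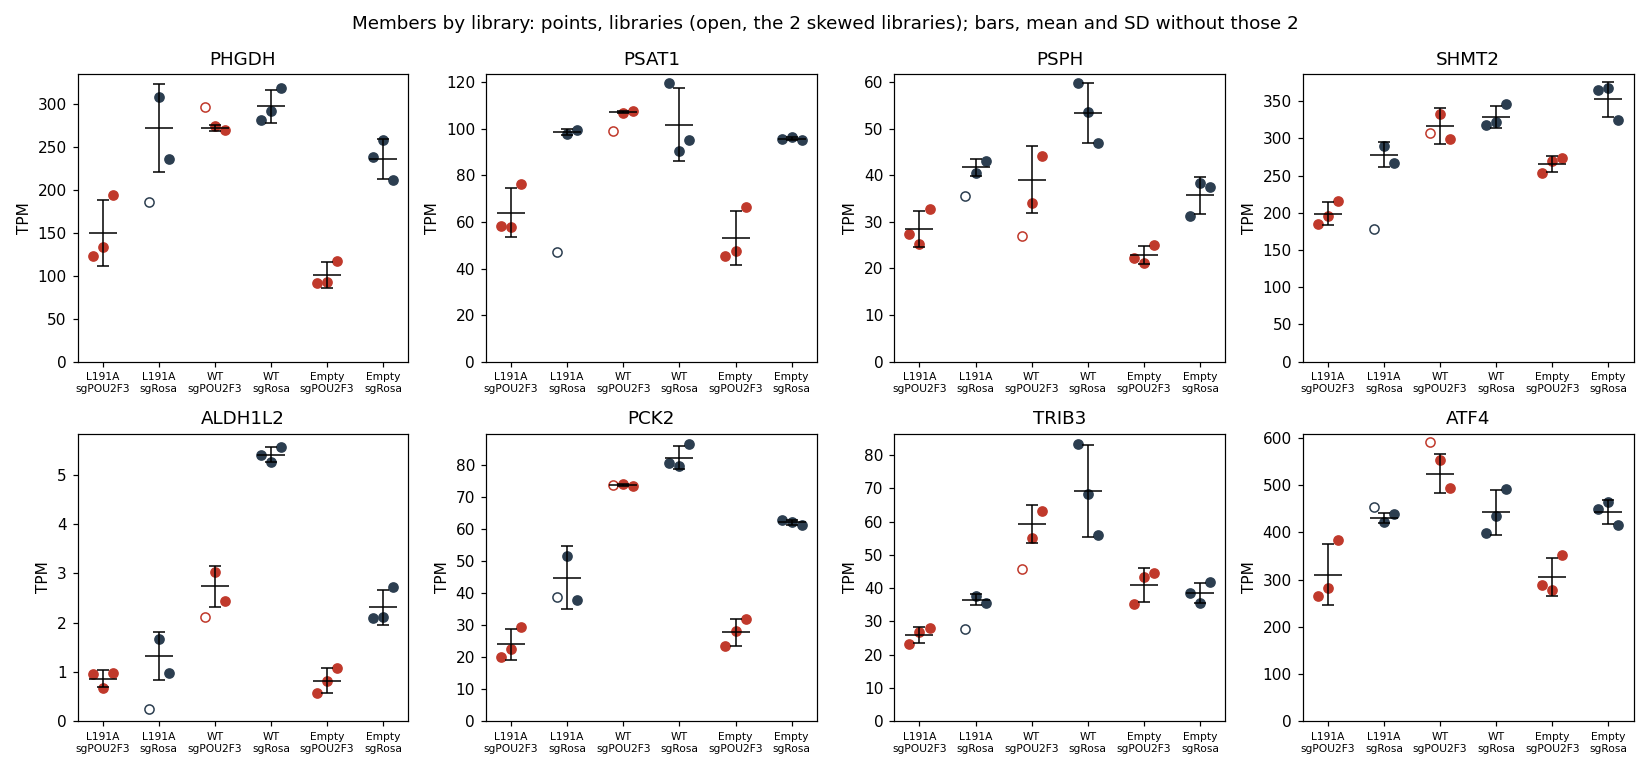
TPM of the 8 members in each library, with sgPOU2F3 left of sgRosa for L191A, WT and empty-vector cells; open points are the 2 skewed libraries, and bars give the mean and SD without them. PCK2 in WT cells stayed at 73.4 to 73.9 TPM under sgPOU2F3, against 20.1 to 29.4 TPM in L191A and 23.4 to 31.8 TPM in empty-vector sgPOU2F3 cells.

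The sgPOU2F3 libraries of the 3 lines show how the set stood with each cDNA once the endogenous gene was targeted. L191A cells had less of most members than WT cells. ALDH1L2, ATF4, PCK2, PHGDH, SHMT2 and TRIB3 were lower, 6 of 8, where 5.72% of all genes were lower, and in 16 libraries all 8 were lower, where 18.9% of all genes were. The largest difference was in PCK2, at −1.60 on the log2 scale (SE 0.16, limma adjusted p = 4.504e-06). TRIB3 followed at −1.04 (SE 0.18, limma adjusted p = 0.0008906), then PHGDH and ALDH1L2, both at −0.92. ATF4 was lower by 0.83 (SE 0.14, limma adjusted p = 0.0008545) and SHMT2 by 0.66 (SE 0.15, limma adjusted p = 0.0066). The exceptions with 18 libraries were PSAT1 at −0.71 (limma adjusted p = 0.06151) and PSPH at −0.27 (limma adjusted p = 0.3733). The members' median was −0.87 against 0.14 over all genes, and −0.83 against −0.01 in 16 libraries. After median-ratio scaling 7 members were lower in 18 libraries and 8 in 16. Their medians were then −1.003 and −0.794, against 0.013 and 0.025 over all genes. The L191A libraries also had less POU2F3 mRNA than the WT libraries under this guide, at 621 to 672 against 1049 to 1276 TPM (log2 difference −0.83, limma adjusted p = 0.3028, and 0.0001558 in 16 libraries), so the change in the protein and its amount cannot be told apart here. Under sgRosa L191A cells already had less TRIB3 (−1.015) and ALDH1L2 (−1.773) than WT cells. These log2 differences were −0.886 and −1.48 in 16 libraries. PCK2 and SHMT2 were lower under sgRosa too, where 48.0% of all genes were lower. ATF4, PHGDH, PSAT1 and PSPH did not pass there.

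WT cells had more of most members than empty-vector cells under sgPOU2F3. ALDH1L2, ATF4, PCK2, PHGDH, PSAT1 and PSPH were higher, 6 of 8, where 6.67% of all genes were higher, and in 16 libraries all 8 were higher, where 18.9% of all genes were. PHGDH differed by 1.47 (SE 0.19, limma adjusted p = 4.381e-05) and PCK2 by 1.38 (SE 0.16, limma adjusted p = 1.731e-05). PSAT1 was higher by 0.98 (SE 0.24, limma adjusted p = 0.008028) and ATF4 by 0.84 (SE 0.14, limma adjusted p = 0.0005685). The contrasts of WT cells with L191A and with empty-vector cells under sgPOU2F3 share the WT sgPOU2F3 libraries, so they are not independent of each other. With 18 libraries ALDH1L2 and PSPH differed between WT and empty-vector cells by 0.952 and 0.571 under sgPOU2F3, and by 0.958 and 0.567 under sgRosa. In 16 libraries the differences under sgPOU2F3 were 1.039 and 0.738, and those under sgRosa were unchanged. PSPH passed under sgRosa in 16 libraries alone. PHGDH, PCK2, PSAT1 and ATF4 differed under sgRosa by 0.333, 0.398, 0.076 and −0.006.

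Between L191A and empty-vector cells under sgPOU2F3, 0 of 8 members passed in limma with 18 libraries, where 3.79% of all genes did in either direction. At an unadjusted p under 0.05, 1 member was higher and 2 were lower. In 16 libraries PHGDH was higher by 0.55 (SE 0.15, limma adjusted p = 0.0151), where 8.27% of all genes were higher. SHMT2 was lower by 0.42 (SE 0.08, limma adjusted p = 0.001497) and TRIB3 lower by 0.64 (SE 0.13, limma adjusted p = 0.002488), where 14.6% of all genes were lower. For these 3 genes the L191A and empty-vector libraries were apart. ATF4 differed by 0.01 with a 95% interval of −0.29 to 0.31, and PCK2 by −0.21 with an interval of −0.55 to 0.13. These intervals do not show that the lines were alike. Leaving out L191A sgRosa replicate 1 gave 3 calls with the rest kept, and leaving out WT sgPOU2F3 replicate 1 gave 1, although neither library is in this comparison, since all groups share 1 estimate of the spread.

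Under sgRosa, with the endogenous gene intact, the lines already differed in part of the set. WT cells had more ALDH1L2 and TRIB3 than empty-vector cells, 2 of 8, where 4.57% of all genes were higher. TRIB3 was higher by 0.81 (SE 0.18, limma adjusted p = 0.01017) and ALDH1L2 by 0.96 (SE 0.22, limma adjusted p = 0.0122). In 16 libraries PCK2 and PSPH were higher too, which made 4 of 8, where 20.9% of all genes were higher. The count of 2 was 0 without empty vector sgRosa replicate 2 and 1 without its replicate 1 or WT sgRosa replicate 1. ATF4 did not pass, with a log2 difference of −0.01 and a 95% interval of −0.28 to 0.26 in 16 libraries. L191A cells had less ALDH1L2, PCK2 and SHMT2 than empty-vector cells, 3 of 8, where 31.0% of all genes were lower, a share near that of the members, and the same 3 in 16 libraries, where 29.9% of all genes were. The count was 1 without empty vector sgRosa replicate 3, and within the 16 libraries it was 0 without L191A sgRosa replicate 3. Against WT cells the same 3 and TRIB3 were lower in L191A cells, 4 of 8, where 48.0% of all genes were lower. In 16 libraries 4 members were again lower, where 44.3% of all genes were. Both shares of all genes were near that of the members. The median over all genes was −0.56 in the comparison of L191A with the empty vector and −0.67 in that with WT. In 16 libraries these medians were −0.197 and −0.306. After median-ratio scaling of 18 libraries SHMT2 turned to 0.13 and PCK2 to 0.13 against the empty vector, and SHMT2 to 0.36 against WT. Against the empty vector that scaling left 1 member lower, ALDH1L2, and 1 higher, PSPH, with a members' median of 0.41. With the same scaling in 16 libraries PSPH was higher and 0 members were lower in limma, with 1 lower at an unadjusted p under 0.05. Against WT it left 1 member lower in 18 libraries and 3 in 16. ALDH1L2 differed most, at −1.77 against WT cells (SE 0.22, limma adjusted p = 3.105e-05). In 16 libraries this difference was −1.48 (limma adjusted p = 4.403e-06).

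The effect of the guide was then compared between lines by interaction terms. In WT cells the effect differed from that in empty-vector cells for PHGDH by 1.14 on the log2 scale (SE 0.26, limma adjusted p = 0.015), for PCK2 by 0.99 (SE 0.23, limma adjusted p = 0.01431) and for ATF4 by 0.85 (SE 0.20, limma adjusted p = 0.01681). These were 3 of 8 members in the higher direction, where 1.71% of all genes were. In 16 libraries PSAT1 (0.94) and SHMT2 (0.35) passed as well, 5 of 8, where 9.01% of all genes did, and 5 also passed without L191A sgRosa replicate 1 alone. PSPH, ALDH1L2 and TRIB3 did not pass in either fit. With 18 libraries the guide changed PSPH by −0.617 with the empty vector and −0.613 in WT cells, and ALDH1L2 by −0.862 and −0.868. Without the skewed library the changes in WT cells were −0.445 for PSPH and −0.781 for ALDH1L2. Mean ALDH1L2 went from 2.31 to 0.825 TPM with the empty vector, and from 5.40 to 2.53 TPM in WT cells with 18 libraries. The log2(TPM + 1) scale compresses changes at such low levels. In 16 libraries the effects on PSPH and ALDH1L2 differed by 0.17 (95% interval −0.23 to 0.58) and by 0.08 (95% interval −0.40 to 0.56). For TRIB3 the difference was −0.288 (95% interval −0.705 to 0.129). Between L191A and WT cells the effect on ATF4 differed by −0.82 (SE 0.20, limma adjusted p = 0.02242), 1 of 8, where 0.972% of all genes were lower. In 16 libraries PCK2 (−0.72), PSAT1 (−0.71) and SHMT2 (−0.43) passed as well, 4 of 8, where 1.74% of all genes did, and PHGDH came to −0.74 (limma adjusted p = 0.05031). Without L191A sgRosa replicate 1 alone 5 members passed, 3 without its replicate 3 and 2 without its replicate 2. The count was 0 without L191A sgPOU2F3 replicate 1 or 2, WT sgPOU2F3 replicate 1, or WT sgRosa replicate 1 or 2. Within the 16 libraries the count of 4 ranged from 0 to 5, and 0 came without L191A sgPOU2F3 replicate 1 or 2, L191A sgRosa replicate 2 or WT sgPOU2F3 replicate 2. It was 1 without WT sgRosa replicate 1 or 2, and 2 without L191A sgRosa replicate 3, WT sgPOU2F3 replicate 3 or empty vector sgRosa replicate 1. Between L191A and empty-vector cells 0 of 8 differed in limma with 18 libraries, where 6.08% of all genes did in either direction. At an unadjusted p under 0.05, 1 did, which was higher. In 16 libraries TRIB3 differed by −0.56 (limma adjusted p = 0.04951), 1 of 8, where 7.54% of all genes were lower. Within the 16 libraries that count was 0 without any 1 L191A sgPOU2F3 library, L191A sgRosa replicate 3, either remaining WT sgPOU2F3 library, WT sgRosa replicate 2, empty vector sgPOU2F3 replicate 2 or 3, or empty vector sgRosa replicate 1 or 2. Leaving out L191A sgRosa replicate 2 alone from the 18 libraries gave 1 call.

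Levels can be ranked across genes because TPM is scaled for transcript length. In empty-vector sgRosa libraries the mean was highest for ATF4 at 443 ± 24.7 TPM, followed by SHMT2 at 352 ± 24.1 TPM and PHGDH at 237 ± 23.3 TPM (SD, n = 3). PSAT1 was at 95.7 ± 0.759 TPM, PCK2 at 62.0 ± 0.756 TPM, TRIB3 at 38.6 ± 3.10 TPM and PSPH at 35.7 ± 3.91 TPM. ALDH1L2 was at 2.31 ± 0.350 TPM. Ordered over the 6 groups in 16 libraries, PCK2, PHGDH, PSPH, TRIB3 and ALDH1L2 were highest in WT sgRosa cells. PSAT1 and ATF4 had their highest mean in WT sgPOU2F3 cells, and SHMT2 in empty-vector sgRosa cells. The lowest group was empty vector sgPOU2F3 for PHGDH, PSAT1, PSPH, ATF4 and ALDH1L2, and L191A sgPOU2F3 for PCK2, SHMT2 and TRIB3. Neighbours in these orders often overlapped. L191A and empty-vector sgPOU2F3 libraries did so for PSAT1, PCK2, ATF4 and ALDH1L2, and the 2 WT groups did so for PSAT1, SHMT2 and TRIB3.

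Other genes of the response were read from 5 lists. Among 35 tested ATF4 targets outside the set, 2 rose and 6 fell under sgPOU2F3 with the empty vector (6 and 16 in 16 libraries), with a median log2 change of −0.31 against −0.13 over all genes tested. Of all genes, 7.94% rose and 9.5% fell there in 18 libraries, and 19.0% and 32.7% in 16, and each list below is read against these shares. After median-ratio scaling 4 of the 35 rose and 6 fell in 18 libraries, with a median of −0.16, and 9 rose and 13 fell in 16. INHBE, an activin-type secreted subunit, and KLHL24, a Kelch-family protein, fell most among those named. INHBE was at 7.03 ± 2.35 TPM under sgPOU2F3, against 32.1 ± 3.20 TPM under sgRosa (SD, n = 3). It fell by 2.08 on the log2 scale (SE 0.28, limma adjusted p = 8.585e-05). KLHL24 was at 6.23 ± 0.673 TPM, against 29.1 ± 6.09 TPM, and fell by 2.04 (SE 0.34, limma adjusted p = 0.0006273). The hormone FGF21 fell by 1.23 and the cationic amino acid transporter SLC7A3 by 0.83, both at low levels. Between L191A and WT cells under sgPOU2F3, 2 of the 35 were higher and 10 lower (3 and 20 in 16 libraries), where 5.72% of all genes were lower (18.9% in 16 libraries), with a median of −0.39 against 0.14 over all genes. INHBE was lower there by 2.33 (SE 0.28, limma adjusted p = 3.628e-05), at 3.55 ± 1.43 TPM in L191A cells, against 21.2 ± 2.64 TPM in WT cells. SLC7A3 was lower by 1.41 (SE 0.15, limma adjusted p = 8.535e-06).

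Of the 9 genes in that list with a promoter match, 3 fell and 1 rose with the empty vector (3 and 2 in 16 libraries). Of all genes, 9.5% fell and 7.94% rose there, and 32.7% and 19.0% in 16 libraries. The 16-library counts with the empty vector were thus near the shares of all genes. Under sgPOU2F3, 5 of the 9 were lower in L191A than in WT cells (6 in 16 libraries). Of all genes, 5.72% were lower in that comparison (18.9% in 16 libraries). CEBPG, a bZIP partner of ATF4, fell to 40.8 ± 3.43 TPM under sgPOU2F3, against 63.8 ± 5.05 TPM under sgRosa (log2 change −0.63, SE 0.14, limma adjusted p = 0.005256). CHAC1, which degrades glutathione, fell to 6.98 ± 2.08 TPM, against 13.0 ± 2.33 TPM (log2 change −0.82, SE 0.26, limma adjusted p = 0.03892). The match did not go with 1 direction. ATF3, a stress-induced bZIP factor, was at 60.4 ± 8.51 TPM under sgPOU2F3, against 35.4 ± 3.59 TPM under sgRosa, and rose in 16 libraries (log2 change 0.75, limma adjusted p = 9.495e-05) but missed the threshold in 18 (limma adjusted p = 0.1301). SLC1A5, a glutamine carrier, was at 278 ± 40.5 TPM, against 330.3 ± 27.9 TPM, and passed in neither fit.

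Among 13 cytosolic aminoacyl-tRNA synthetases, which load amino acids onto tRNA, 0 rose and 3 fell with the empty vector (1 and 8 in 16 libraries; 1 and 5 at an unadjusted p under 0.05). Those that fell were CARS at −0.77 (SE 0.15, limma adjusted p = 0.002562), AARS at −0.72 (SE 0.21, limma adjusted p = 0.02739) and SARS at −0.44 (SE 0.14, limma adjusted p = 0.03525), the enzymes for cysteine, alanine and serine. SARS was at 164 ± 14.2 TPM under sgPOU2F3, against 223 ± 12.4 TPM under sgRosa. In the rest of serine, glycine and one-carbon metabolism, 0 of 24 genes rose and 3 fell (4 and 9 in 16 libraries; 2 and 4 at an unadjusted p under 0.05), and the median was 0.01. The shares of this list that fell were near those of all genes. Those 3 were ALDH1L1, the cytosolic counterpart of ALDH1L2, at −1.04 (SE 0.15, limma adjusted p = 0.000173), SFXN3, a sideroflexin that carries serine into mitochondria, at −1.21 (SE 0.31, limma adjusted p = 0.01382), and AMT of the glycine cleavage system at −0.58 (SE 0.14, limma adjusted p = 0.0111). ALDH1L1 fell in WT cells too, by 0.70 (SE 0.15, limma adjusted p = 0.02043), as ALDH1L2 did. Median-ratio scaling of 18 libraries left 1 synthetase higher and 1 lower, and 2 genes of the one-carbon list higher and 3 lower. In 16 libraries that scaling gave 1 synthetase higher and 4 lower, and 9 genes of the one-carbon list higher and 7 lower.

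Upstream of ATF4 stand the kinases and phosphatases that set eIF2 phosphorylation, and beside it the other arms of the endoplasmic reticulum stress response. Of 16 eIF2 control genes, 2 rose and 0 fell with the empty vector (4 and 4 in 16 libraries), with a median of 0.03. At an unadjusted p under 0.05, 3 rose and 0 fell. The shares of this list that rose were near those of all genes, 7.94% in 18 libraries and 19.0% in 16. EIF2B3 and EIF2B4, subunits of the exchange factor that recharges eIF2, rose by 0.51 (SE 0.14, limma adjusted p = 0.01908) and 0.42 (SE 0.12, limma adjusted p = 0.01944). After median-ratio scaling 0 of the 16 passed in 18 libraries by limma, with 3 higher at an unadjusted p under 0.05, and 6 rose and 1 fell in 16 libraries. Of 14 endoplasmic reticulum genes, 3 rose and 0 fell (7 and 1 in 16 libraries; 5 and 0 at an unadjusted p under 0.05), with a median of 0.17. After median-ratio scaling 4 rose and 0 fell in 18 libraries, and 7 rose and 1 fell in 16. SDF2L1, a chaperone cofactor, was at 85.5 ± 4.96 TPM under sgPOU2F3, against 46.5 ± 6.72 TPM under sgRosa (log2 change 0.87, SE 0.18, limma adjusted p = 0.003367). CRELD2 and PDIA6, also of that compartment, rose by 0.58 and 0.45. The differences between lists were not tested.

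**Figure D3:**
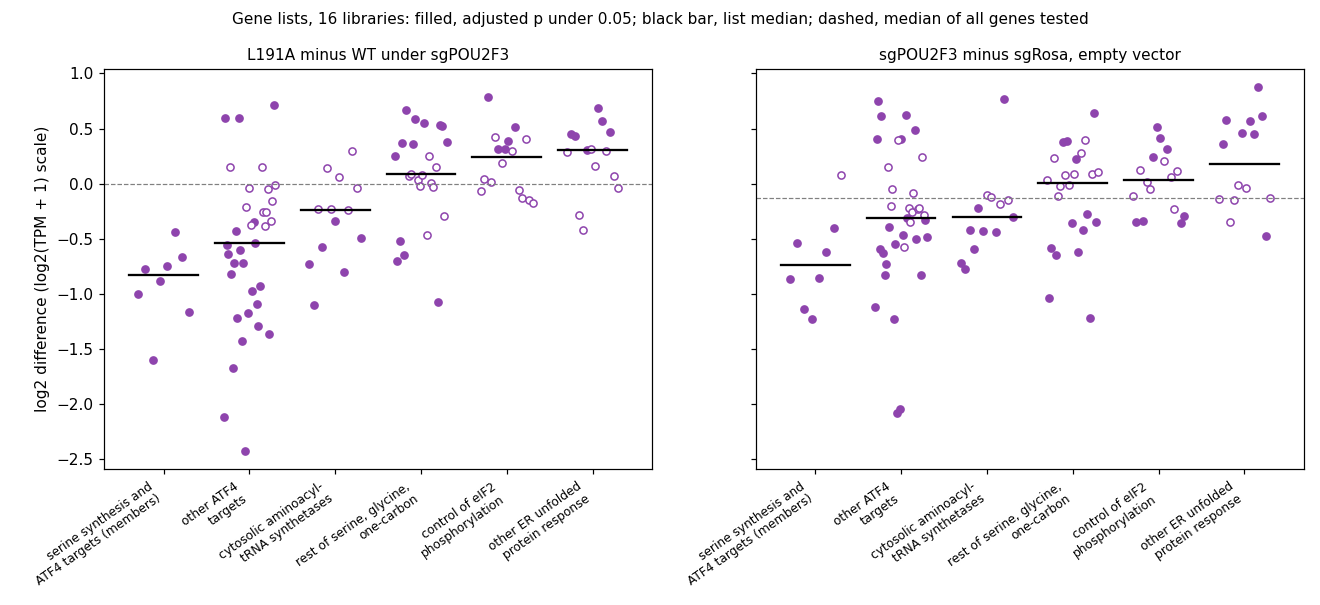
Log2 differences of single genes in 16 libraries for L191A minus WT under sgPOU2F3 (left) and sgPOU2F3 minus sgRosa with the empty vector (right), by list; filled points passed an adjusted p of 0.05 in limma, black bars are list medians and the dashed line is the median of all genes tested. Medians of the members were −0.83 (left) and −0.74 (right), against 0.30 and 0.17 for the endoplasmic reticulum list.

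The pattern of a member over the 6 groups was set beside that of every other gene with a mean of at least 5 TPM, by the root mean square difference of centred group means on the log2 scale in 16 libraries. For PHGDH the nearest were HIST3H2A (0.136), CHRDL1 (0.139) and SMIM10L1 (0.14). CHRDL1 was at 63.5 ± 8.21 TPM in empty-vector sgPOU2F3 libraries, against 189.6 ± 46.9 TPM in sgRosa libraries (SD, n = 3). For TRIB3 the nearest were IL4R (0.113), FUOM (0.122) and SESN2 (0.122), of which SESN2, a leucine-sensing sestrin, was already in the ATF4 target list. SESN2 was at 8.38 ± 3.20 TPM in L191A sgPOU2F3 libraries, against 18.3 ± 0.257 TPM in WT sgPOU2F3 libraries without the skewed one (n = 2). With the skewed library the WT sgPOU2F3 value was 15.7 ± 4.61 TPM (n = 3). These likenesses rest on 6 group means and carry no test.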

How the data were processed

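Per the labels' protocols, RNA was extracted with TRIzol and poly(A) libraries were built with a TruSeq kit. Per the submitters' processing notes, the authors used kallisto with hg38, and the deposited unit is TPM. Its version, the transcript set and strandedness were not given in the sources used here. The table held 19875 entries. Of these, 129 named no gene (27 dates and 102 description fragments) and were left out; they held 1.64% to 2.43% of a library's TPM. Of the names kept, 97.75% were in the reference gene tables. Genes averaging 1 TPM or more over the 18 libraries were fitted with limma 3.58.1 in R 4.3.3, on log2(TPM + 1) with a mean for each group and a variance trend. The 12 contrasts were tested two-sided, each with Benjamini-Hochberg adjustment over 13068 genes, at 0.05. The fit was tested on simulated data. Members and lists were chosen with earlier results of these data known. Genes beyond the members were named as the up to 4 with the smallest p per list with the empty vector, or by a promoter match. Likeness was also planned for ASNS and could not be applied. The 5 lists lack MTHFD1L, MTHFD2L, HSPA5, DNAJB9, DNAJC3 and DNAJB11, not analysed here, and GDF15 and SDS, below the filter. Alternatives were other pseudocounts, filters, scalings, a replicate block, no variance trend, fits of the compared groups alone and libraries left out.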

Additional observations from a re-analysis of the deposited data

Results flagged for a closer look

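The effect of sgPOU2F3 differed between lines for 3 members by the interaction term in limma. For ATF4 the log2 change under the guide was −0.539 with the empty vector and 0.307 in WT cells, a difference of 0.846 (limma adjusted p = 0.01681). In L191A cells it was −0.515, which differed from WT cells by −0.822 (limma adjusted p = 0.02242). For PHGDH the log2 change was −1.225 with the empty vector and −0.085 in WT cells, a difference of 1.14 (limma adjusted p = 0.015). For PCK2 these changes were −1.141 and −0.155, a difference of 0.987 (limma adjusted p = 0.01431). None of the changes in WT cells passed the threshold. All are results of the 18-library fit.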

How the results depend on the processing

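Members called with all 18 libraries are compared here with each alternative; the cause of the changes was not tested, except that a filter of 5 TPM removes ALDH1L2. For sgPOU2F3 in WT cells, 1 member was called. The count was 2 in 16 libraries, with a pseudocount of 5, without a filter, with a replicate block and with that block in 16 libraries. It was 0 with a pseudocount of 0.1, the 5 TPM filter, quantile normalization, median-ratio scaling or the compared groups alone. In L191A cells the count of 3 was 7 in 16 libraries and with quantile normalization, 6 with median-ratio scaling in 18 or 16 libraries, 5 with the block in 16, 1 without a variance trend and 0 with the compared groups alone. For L191A minus empty vector under sgPOU2F3 the count of 0 was 3 in 16 libraries, alone, with the block or with median-ratio scaling, and 2 with quantile normalization or the compared groups alone. Under sgRosa, WT minus empty vector moved from 2 calls to 4 in 16 libraries with or without the block, 1 with a pseudocount of 0.1 or the 5 TPM filter, and 5 with the compared groups alone. L191A minus empty vector moved from 3 lower to 1 higher, PSPH, with median-ratio scaling in 16 libraries and to 0 with the compared groups alone, and L191A minus WT from 4 to 1 with median-ratio scaling. For the difference of effects between WT and empty vector, 3 became 5 in 16 libraries. Between L191A and empty vector, 0 became 1 in 16 libraries, with median-ratio scaling in 18 or 16, and with quantile normalization. Between L191A and WT, 1 became 4 in 16 libraries, 3 with a pseudocount of 5 or a replicate block, 6 with median-ratio scaling in 18 or 16, 5 with quantile normalization, and 0 with the block in 16 libraries or the compared groups alone. Signs of called values turned for SHMT2 and PCK2 under sgRosa with median-ratio scaling: L191A minus empty vector became 0.129 for SHMT2 and 0.128 for PCK2, and SHMT2 in L191A minus WT became 0.356, and 0.127 in 16 libraries. The other contrasts kept their counts within 1.5-fold in these settings.

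With 1 library left out, members called ranged from 2 to 7 for the guide with the empty vector, 0 to 2 in WT cells and 1 to 4 in L191A cells. Under sgPOU2F3 they ranged from 5 to 8 for WT minus empty vector, 0 to 3 for L191A minus empty vector and 5 to 7 for L191A minus WT; under sgRosa from 0 to 3, 1 to 3 and 3 to 5 in that order. Differences of effects ranged from 2 to 5 (WT minus empty vector), 0 to 1 (L191A minus empty vector) and 0 to 5 (L191A minus WT). Of single member values called in the 18-library fit, 945 kept sign and call over the alternatives, 94 lost the call and 4 turned sign. Of those not called, 1589 stayed so with the same sign, 133 passed and 103 turned sign without a call. Counts over all genes moved too: with the empty vector 2280 genes were called, against 1589 to 7225 over the alternatives other than leaving out 1 library. Deviations of same-numbered libraries from their group means correlated at r from −0.578 to 0.594 over 45 pairs, with 15 over 0.1. Of 18 libraries, 5 correlated best with their own number. The numbers were therefore not taken to pair samples in the main fit. Whether same-numbered libraries shared a batch was not settled by these correlations. The 16-library fits with a block, with median-ratio scaling or with a further library left out were chosen after seeing the data. Read depth is unknown from TPM, which limits what can be said of ALDH1L2, the least abundant member.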
